A study of Mus musculus with 12 samples.

Results

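Inguinal white adipose tissue (iWAT), a subcutaneous fat depot of the mouse, was compared between mice that lack ATF4 in adipocytes (Atf4AKO) and their floxed littermates (Atf4WT), all kept at room temperature (RT). The comparison covered 6 of the 12 libraries of the series, 3 biological replicates (numbered 0 to 2) of each genotype, and 13404 of the 14159 listed genes, namely those that averaged at least 10 normalized counts across the 12 libraries. All mice were on the C57BL/6 background and carried floxed *Atf4* alleles, and the Atf4AKO mice also carried Cre recombinase driven by the promoter of *Adipoq* (adiponectin), which is active in adipocytes. The other 6 libraries came from mice of the same 2 genotypes after 24 h of cold. The age of the mice is not given for these libraries. The RNA came from whole tissue, which also holds vessels, immune cells and progenitors in which the *Adipoq* promoter is not known to be active. In such bulk samples, fewer cells of a type and less RNA per cell cannot be told apart.

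ATF4 is a transcription factor whose translation rises when the translation factor eIF2 is phosphorylated, a pathway called the integrated stress response (ISR). Kinases that sense amino acid shortage, unfolded proteins in the endoplasmic reticulum (ER), heme shortage or viral RNA phosphorylate eIF2, and ATF4 then activates genes for amino acid synthesis, amino acid uptake, mitochondrial folate metabolism and tRNA charging. It often binds together with a C/EBP protein to a composite DNA element. The question addressed at RT was which transcripts differ in adipose tissue without ATF4 before the tissue is challenged by cold.

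At RT, few genes differed. A gene was called a DEG where it changed more than 1.5-fold at an unadjusted limma p-value below 0.05, and 62 genes or 0.463% of those tested met both conditions. Of these, 38 (0.283% of tested genes) were lower and 24 (0.179%) were higher in Atf4AKO iWAT. After Benjamini-Hochberg adjustment over all 13404 genes, 1 gene (0.00746%) kept a p-value under 0.05, *Rps19bp1*, which is the neighbour of *Atf4*. The next 2 genes, *Atf4* itself and *Cacna1i*, both had an adjusted p of 0.0762, and 57 of the 62 DEGs had an adjusted p of 1. An unadjusted p-value under 0.05 was found for 205 genes (1.53%), below the 5% that this threshold would give by itself, and 143 of them had a fold change under 1.5. The median log2 fold change of all tested genes was 0.006, and 51.8% of genes lay above 0. The libraries held 26983496 to 29105147 reads on listed genes, and the 95% confidence interval of the fold change lay within 1.5-fold in both directions for 8777 genes (65.5%).

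The 3 libraries of a genotype lay entirely below the 3 of the other for 400 genes with Atf4AKO lower (2.98%) and for 445 genes with Atf4AKO higher (3.32%). Among the 62 DEGs, 40 were separated in this way and 22 overlapped between the genotypes at RT. Expression was low for many of them, as 27 had a mean under 50 normalized counts over the 6 RT libraries. With 3 libraries against 3, an exact permutation test of a single gene cannot give a p-value under 0.1. Full separation in either direction gives exactly that value. The shares of 2.98% and 3.32% are thus no excess over what libraries without a genotype difference would give.

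The targeted gene was reduced in every Atf4AKO library. *Atf4* (NM_009716) at chr15:80255184-80257541 (mm10, plus strand) had 5669, 4670.3 and 4107 normalized counts in Atf4WT and 1594, 1469.6 and 1639 in Atf4AKO replicates 0, 1 and 2. The lowest Atf4WT library lay well above the highest Atf4AKO library. Mean counts were 4815 ± 791 (SD, n = 3) and 1568 ± 87.9 (SD, n = 3), a 3.05-fold reduction and a log2 fold change of −1.61 (standard error 0.22, 95% confidence interval −2.08 to −1.13, adjusted p = 0.0762 with limma). After cold, the Atf4WT libraries had 7644, 7511 and 5756 counts and the Atf4AKO libraries 1578, 788 and 1179.8, a log2 fold change of −2.60 (adjusted p = 0.000644 with limma). The genotype effect on *Atf4* after cold was larger than at RT by 1.00 on the log2 scale, with an unadjusted p of 0.0074 and an adjusted p of 0.478 in limma, so that the difference did not pass the adjusted threshold.

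The 2 nearest tested genes downstream of *Atf4* changed with it, in opposite directions. *Rps19bp1* (NM_175109), which encodes a small protein that binds ribosomal protein S19 and regulates the deacetylase SIRT1, lies at chr15:80260615-80264315 (minus strand), with 3073 bases between it and *Atf4*. It had 518, 604 and 496 normalized counts in Atf4WT and 90.2, 104 and 114 in Atf4AKO iWAT. The Atf4AKO libraries were thus far below and close to each other. The means were 539.5 ± 57.2 and 103 ± 12 (SD, n = 3 each), a 5.22-fold reduction (log2 fold change −2.38, standard error 0.20, limma adjusted p = 0.00141). It was also reduced after cold, with a log2 fold change of −2.76, and the effects at the 2 temperatures differed by −0.37 (unadjusted p = 0.214, adjusted p = 0.989, limma).

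*Cacna1i* (NM_001044308), which encodes a pore subunit of a T-type calcium channel known mainly from neurons, lies at chr15:80287238-80398279 (plus strand), with 29696 bases between it and *Atf4*. Its normalized counts were 0.919, 3.85 and 78.8 in Atf4WT and 1224, 1505 and 1701 in Atf4AKO iWAT. The transcript was near absent from Atf4WT replicates 0 and 1, was low in Atf4WT replicate 2 and was plainly present in all Atf4AKO libraries. On the log2(normalized count + 1) scale the fold change was 7.34 (standard error 1.02, 95% confidence interval 5.09 to 9.59, adjusted p = 0.0762 with limma), and its size rests on Atf4WT replicate 2, as it was 8.91 without this library (adjusted p = 3.41e-05 with limma). It also depended on the scale, and edgeR gave 5.72 on the recovered reads. After cold it was again higher in Atf4AKO iWAT, with 84.2, 215 and 268 counts in Atf4WT and 2899.7, 3477 and 2755 in Atf4AKO libraries, a log2 fold change of 4.15.

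The other genes around *Atf4* did not show this. Within 500 kb on either side, 15 listed genes besides *Atf4* were tested and only *Rps19bp1* and *Cacna1i* were DEGs at RT. The other 13 had log2 fold changes between −0.39 (*Syngr1*) and 0.19 (*Mgat3*). *Mief1*, a mitochondrial fission factor gene whose annotated end lies 1812 bases before *Atf4*, had 913, 891 and 819 normalized counts in Atf4WT and 790.1, 873 and 815 in Atf4AKO iWAT (log2 fold change −0.08). The structure of the floxed allele is not given in the sources used here, and its part in the levels of the neighbouring genes was not tested.

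**Figure D1:**
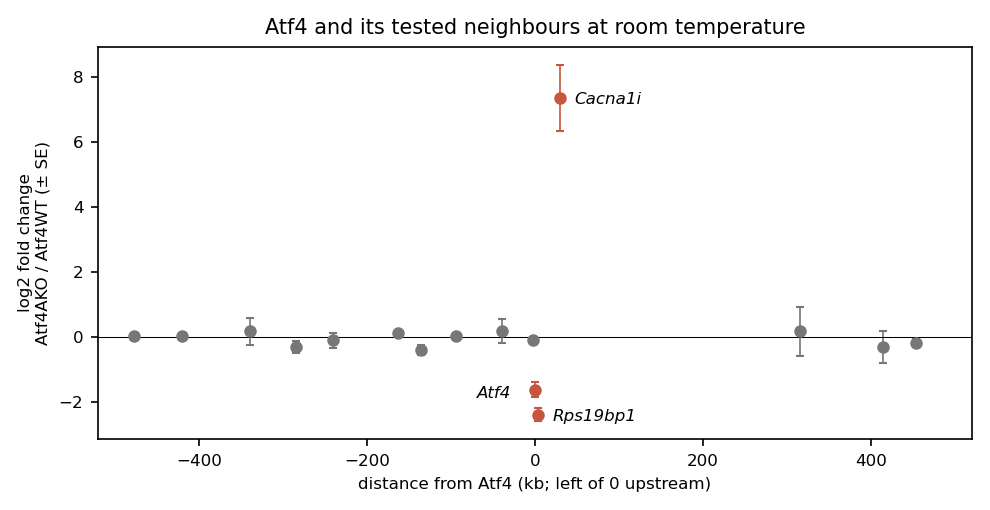
Log2 fold change between Atf4AKO and Atf4WT iWAT at RT (vertical axis, points with standard errors, n = 3 libraries per genotype) of *Atf4* and the 15 tested genes within 500 kb, against the distance between the gene and *Atf4* in kb (horizontal axis). The 3 DEGs in red are *Atf4* at −1.61, *Rps19bp1* at −2.38 and *Cacna1i* at 7.34, and the 13 grey points lie between −0.39 and 0.19.

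Genes of the ATF4 pathway were read next. The lists were ATF4 cofactors and stress factors, amino acid synthesis and related enzymes, folate enzymes, amino acid transporters and cytosolic aminoacyl-tRNA synthetases. They held 100 tested genes between them. Of these, 2 were lower DEGs (*Atf5* and *Slc1a4*) and 1 was a higher DEG (*Aspg*), which is 3% beside 0.463% of all tested genes. The median log2 fold change of the 100 genes was −0.04, beside 0.006 over all genes, with 58 below and 42 above 0. The Atf4AKO libraries lay entirely below the Atf4WT libraries for 7 of these genes and entirely above for 1, beside 2.98% and 3.32% of all tested genes. For 64 of the 100 genes the 95% confidence interval lay within 1.5-fold in both directions, beside 65.5% of all tested genes.

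*Atf5*, a close relative of *Atf4* that is itself translated under the ISR, was the clearest of them. *Atf5* (NR_033136, chromosome 7, minus strand, 44812256 to 44816658) had 4605, 4636 and 4295 normalized counts in Atf4WT and 2796, 2679 and 3001 in Atf4AKO iWAT. The gap between the genotypes was several times the spread within them, with means of 4512 ± 189 and 2826 ± 163 (SD, n = 3 each). Its log2 fold change was −0.68 (standard error 0.12, unadjusted p = 0.000103, adjusted p = 0.344, limma). *Atf5* overlaps *Nup62* and *Il4i1* on the opposite strand, and the strand setting of the counting is not given. *Nup62*, a nuclear pore gene, had 787 ± 46.8 and 765 ± 53.1 counts (SD, n = 3 each), and *Il4i1* was at 26.9 counts or less in each RT library.

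*Slc1a4*, which encodes the neutral amino acid transporter ASCT1 that carries serine and alanine, had 124, 174 and 153 normalized counts in Atf4WT and 123, 91.6 and 77.0 in Atf4AKO iWAT. The groups did not overlap, but the lowest Atf4WT and the highest Atf4AKO library were almost equal. The log2 fold change was −0.64 (standard error 0.24, unadjusted p = 0.0212, adjusted p = 1, limma), and the gene was called in 13 of 19 other settings, with log2 fold changes from −0.82 to −0.43 and the call lost without Atf4WT replicate 1 or 2 and without Atf4AKO replicate 1 or 2.

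The direction was opposite for *Aspg*, which encodes an asparaginase, an enzyme that breaks asparagine down. *Aspg* (NM_001081169, chromosome 12, plus strand, 112106679 to 112127559) had 322, 319.5 and 334 normalized counts in Atf4WT and 526, 494 and 529.7 in Atf4AKO iWAT. The libraries of each genotype were tightly grouped around 325 ± 7.53 and 517 ± 19.7 (SD, n = 3 each), a log2 fold change of 0.67 (standard error 0.12, unadjusted p = 0.000153, adjusted p = 0.411, limma). After cold the fold change was 0.02, and the difference between the effects was −0.65 with an unadjusted p of 0.0026 and an adjusted p of 0.474 in limma.

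**Figure D2:**
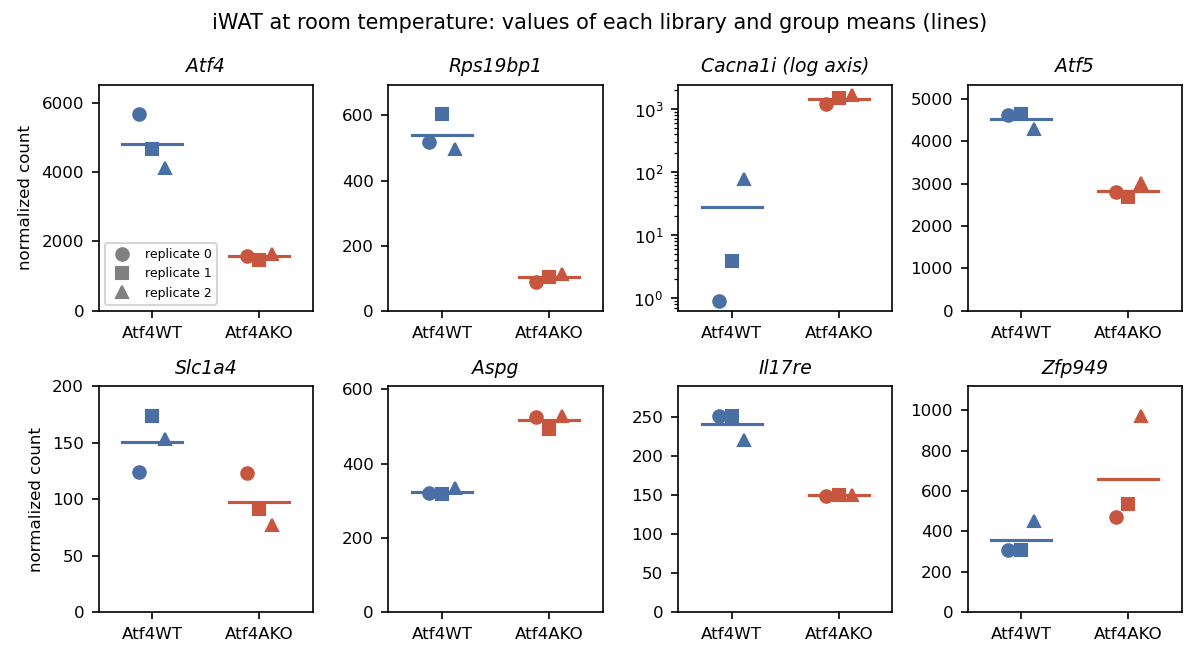
Normalized counts (vertical axes, starting at 0 except for *Cacna1i* on a log axis) of 8 genes in the 3 Atf4WT (blue) and 3 Atf4AKO (red) libraries at RT, with symbols for replicates 0 to 2 and a line at each group mean. The genotypes do not overlap in any panel, and the smallest gap is that of *Slc1a4*, with 124 counts in Atf4WT and 123 in Atf4AKO replicate 0.

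To show the DNA element through which ATF4 and C/EBP proteins bind, the promoters of *Slc1a4* and *Asns* (asparagine synthetase, a classical ATF4 target) are given here from RefSeq (GRCm38.p6), from 160 bases before to 10 bases after the annotated start, 5′ to 3′ on the strand of the gene. Capitals mark the match to TGATGNAA or its reverse complement. The *Slc1a4* promoter lies at chr11:20332704-20332873 and that of *Asns* at chr6:7693200-7693369, both on the minus strand.
Slc1a4: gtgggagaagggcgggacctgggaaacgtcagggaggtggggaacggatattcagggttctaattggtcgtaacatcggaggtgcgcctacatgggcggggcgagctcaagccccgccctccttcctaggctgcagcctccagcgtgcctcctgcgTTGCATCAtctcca
Asns: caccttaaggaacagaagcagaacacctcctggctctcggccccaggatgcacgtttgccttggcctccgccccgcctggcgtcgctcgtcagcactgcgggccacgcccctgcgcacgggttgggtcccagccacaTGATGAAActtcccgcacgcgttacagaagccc

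The element of *Asns* reads along the strand of the gene, and that of *Slc1a4* reads on the other strand across the annotated start. *Asns* was not a DEG at RT. It had 2312, 2768 and 2062 normalized counts in Atf4WT and 1788, 2852 and 1961 in Atf4AKO iWAT, overlapping values with a log2 fold change of −0.13 (95% confidence interval −0.53 to 0.26). The same 8 letters, searched on both strands over 250 bases before to 50 after each start, were found in 3.97% of 32851 promoters, or in 1219 of 27025 genes (4.51%). A promoter was at hand for 74 of the 100 pathway genes, and 17 of them (23%) held the element, a match that is a description and not a binding site. Among these 17, *Slc1a4* was the only DEG. The others included *Chac1* (log2 fold change −0.36), *Nupr1* (−0.32), *Trib3* (−0.14), *Fgf21* (−0.03), *Aars* (−0.03), *Gars* (0.06) and *Atf3* (0.35). Of the 48 DEGs with a promoter in the table, 1 held the element, again *Slc1a4*, and neither *Atf5* nor *Aspg* was among them.

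The ATF4 cofactors and stress factors had a median log2 fold change of −0.01, with 1 of 20 tested genes called (*Atf5*). *Ddit3*, which encodes the stress factor CHOP, had 595, 623 and 503 normalized counts in Atf4WT and 527, 567 and 574 in Atf4AKO iWAT. *Cebpb*, a C/EBP partner of ATF4, had 2983, 1911 and 1813 counts in Atf4WT and 2748, 3953 and 2287 in Atf4AKO iWAT. For both genes the genotypes overlapped. *Nupr1*, a stress-induced chromatin protein gene, did not overlap, with 2674, 3271 and 2737 counts against 2437, 2556 and 1993, and its log2 fold change of −0.32 was under the fold threshold. *Trib3*, a pseudokinase gene that ATF4 and CHOP induce, had 219, 294 and 231 counts against 196, 169 and 335, with Atf4AKO replicate 2 the highest of the 6.

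The list of amino acid synthesis and related enzymes had a median of −0.01, with *Aspg* the 1 gene called of 18. As *Aspg* encodes an enzyme of asparagine breakdown, no synthesis enzyme of this list was called. *Phgdh*, the first enzyme of serine synthesis, had a log2 fold change of −0.22 (95% confidence interval −0.51 to 0.07), and *Psat1*, the next enzyme, one of 0.13 (−0.10 to 0.37). Amino acid transporters had a median of −0.06, with *Slc1a4* the 1 gene called of 25. *Slc7a5*, which encodes the leucine exchanger LAT1, had 70.7, 96.2 and 82.5 counts against 72.5, 50.8 and 73.3, and *Slc7a8*, which encodes the related LAT2, had 586, 731 and 853 against 629, 444 and 553. *Slc7a8* had an unadjusted limma p of 0.0205 at a log2 fold change of −0.41, under the fold threshold. The 21 aminoacyl-tRNA synthetases and tRNA exporters had a median of −0.03 and a range from −0.21 (*Cars*) to 0.09 (*Rars*), and the 95% confidence interval lay within 1.5-fold for all 21.

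Folate enzymes had a median of −0.03, with 0 of 16 called. The 95% confidence interval lay within 1.5-fold for 13 of the 16. *Mthfd2*, the mitochondrial methylenetetrahydrofolate dehydrogenase, had 164, 182 and 146 normalized counts in Atf4WT and 117, 87.6 and 145 in Atf4AKO iWAT. The groups did not overlap, with the lowest Atf4WT and highest Atf4AKO library almost equal, and the log2 fold change of −0.51 (95% confidence interval −1.24 to 0.22) was not called, while it was called in 2 of 19 other settings, array weights (−0.60) and the muscle score as a covariate (−0.74). After cold its fold change was −2.08, and the effect differed from that at RT by −1.57 (unadjusted p = 0.0064, adjusted p = 0.474, limma), and by −0.82 with a lymphocyte marker score as a covariate (unadjusted p = 0.237, limma). *Mthfd1l*, another mitochondrial folate enzyme, had 47.0 ± 12.3 and 45.6 ± 3.76 counts at RT (SD, n = 3 each), a log2 fold change of −0.01 beside −2.05 after cold (difference −2.04, adjusted p = 0.481, limma, and −0.88 with that covariate). The lymphocyte score did not overlap between the genotypes after cold, so the covariate cannot be separated from genotype in these 2 genes. *Shmt2*, the mitochondrial serine hydroxymethyltransferase, had 582 ± 26 and 524 ± 48.3 counts, a log2 fold change of −0.15 with a 95% confidence interval of −0.44 to 0.13, which excludes a 1.5-fold change.

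For *Aldh18a1*, an enzyme of proline synthesis, the counts at RT were 290.1 ± 77.3 and 286 ± 14.7 (SD, n = 3 each), a log2 fold change of 0.02. *Slc25a12*, a mitochondrial aspartate/glutamate carrier gene, had 236, 214 and 459 counts in Atf4WT and 269.6, 168 and 218 in Atf4AKO iWAT. Its fold change of −0.41 rests on Atf4WT replicate 2 and was −0.06 without it.

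No gene was called in the stress pathways that act beside ATF4, where 0.463% of all tested genes were called. The ER unfolded protein response list had 0 of 19 genes called, a median of 0.14 and 16 genes above 0 (51.8% of all genes were), and the Atf4AKO libraries lay entirely above the Atf4WT libraries for 5 genes (3.32% of all genes). *Dnajb9*, an ER co-chaperone gene, had 1183, 1103 and 1232 counts in Atf4WT and 1309, 1395 and 1362 in Atf4AKO iWAT, a log2 fold change of 0.21 (95% confidence interval 0.02 to 0.40). *Manf*, a secreted ER stress protein gene, had 1646, 1634 and 1684 against 1852, 1735 and 2133, also 0.20 (0.01 to 0.39). *Hspa5*, the main ER chaperone, had 11012, 10420.4 and 11700.1 against 11341, 12863 and 13559.7, with overlapping groups. Mitochondrial chaperones and proteases had 0 of 13 called and a median of 0.08. *Hspe1*, which encodes the mitochondrial chaperonin HSP10, had 2729.6, 2754 and 2442 counts against 3068, 2972 and 3077 (log2 fold change 0.20, 95% confidence interval −0.09 to 0.50). The eIF2 kinases and eIF2 subunits had 0 of 14 called, a median of 0.02 and an interval within 1.5-fold for all 14, and antioxidant genes had 0 of 38 called and a median of 0.04.

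**Figure D3:**
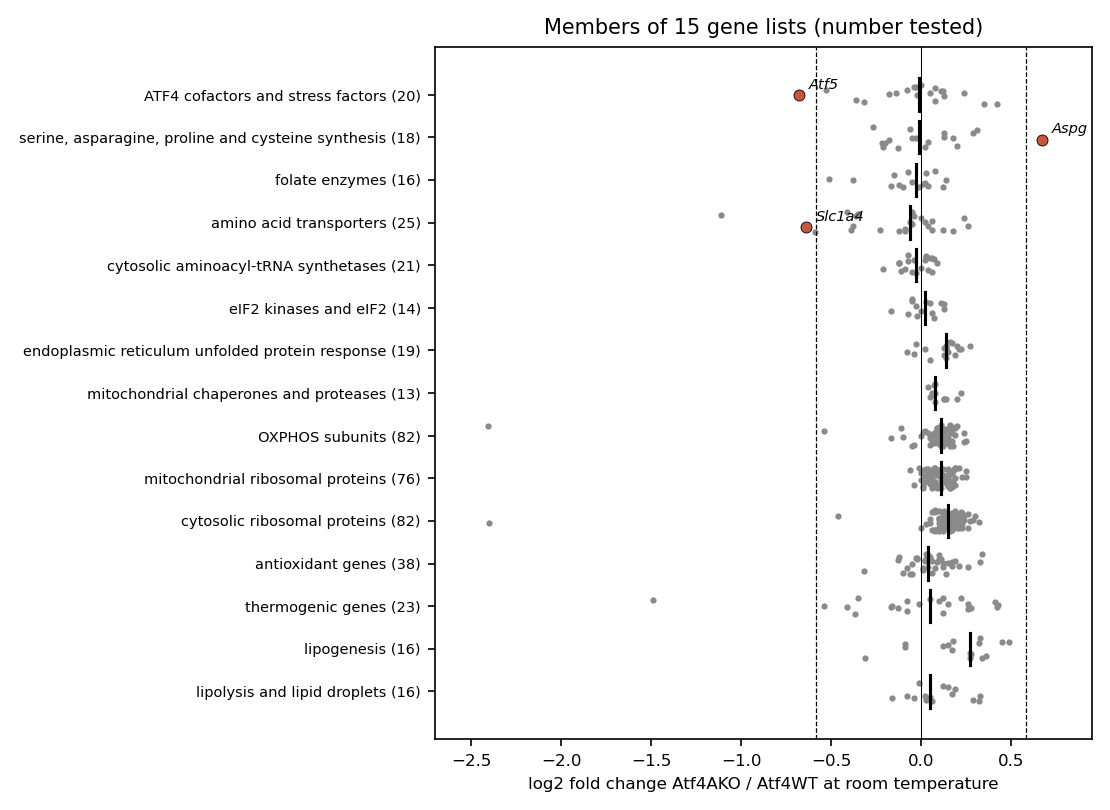
Log2 fold change between Atf4AKO and Atf4WT iWAT at RT (horizontal axis) of every tested member of 15 gene lists (rows, with the number tested), with a black line at the median of each list and dashed lines at a 1.5-fold change. Red points are the 3 DEGs, *Atf5* and *Slc1a4* lower and *Aspg* higher, and list medians lie between −0.06 and 0.27.

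Of the 82 cytosolic ribosomal protein genes tested, 0 were DEGs, beside 0.463% of all tested genes. Their log2 fold changes were above 0 for 80, beside 51.8% of all tested genes, the median log2 fold change was 0.15 beside 0.006 over all genes, and the Atf4AKO libraries lay entirely above the Atf4WT libraries for 37, beside 3.32% of all tested genes. Summed over the list, the counts were 659260.2 ± 8705 in Atf4WT and 735359 ± 15088 in Atf4AKO iWAT (SD, n = 3 each), a ratio of 1.12. The highest log2 fold change of the list was 0.32, and *Rpl8* was among its most raised members. *Rpl8* had 7387, 9126 and 8903 normalized counts in Atf4WT and 10736, 10388 and 10527 in Atf4AKO iWAT. Each Atf4AKO library thus lay above each Atf4WT library for this gene. The lowest member was *Rpl3l*, a muscle paralog of *Rpl3*, with 480.3 counts in Atf4WT replicate 2 and at most 3.72 in the other 5 libraries. Over the alternative analyses the median of the list stayed between 0.13 and 0.16. After cold the median was −0.25.

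Mitochondrial and proteasome genes were not called, beside 0.463% of all tested genes that were. Subunits of oxidative phosphorylation had 0 of 82 called and a median of 0.11, mitochondrial ribosomal proteins had 0 of 76 called and a median of 0.11, and proteasome subunits had 0 of 36 called and a median of 0.11. Without Atf4WT replicate 2 these 3 medians were 0.03, 0.04 and 0.05, whereas that of the cytosolic ribosomal proteins was 0.13. The lowest member of the oxidative phosphorylation list was *Cox6a2*, a muscle and heart subunit of cytochrome c oxidase, with 389 counts in Atf4WT replicate 2 and at most 5.51 in the other RT libraries. The 95% confidence interval lay within 1.5-fold for 76 of the 82 oxidative phosphorylation genes and for 75 of the 76 mitochondrial ribosomal proteins.

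Genes of thermogenesis and lipid metabolism were not called. Of 23 thermogenic genes 0 were DEGs, beside 0.463% of all tested genes, with a median of 0.05. Without Atf4WT replicate 2 the median was −0.06 and 1 gene was a lower DEG. The 95% confidence interval lay within 1.5-fold for 4 of the 23, beside 65.5% of all tested genes. For the others a change of that size was not excluded. *Ucp1*, the gene of uncoupling protein 1, the heat producer of beige and brown fat, had 439, 685 and 204 normalized counts in Atf4WT and 1097, 441 and 298 in Atf4AKO iWAT. These values overlapped widely, and the 95% confidence interval of its log2 fold change (−0.63 to 1.44) leaves room for changes over 1.5-fold. *Ppargc1a*, a coactivator of mitochondrial genes, had 398, 323 and 262 against 253, 318 and 303, and *Cidea*, a lipid droplet protein of thermogenic fat, 4077, 4082 and 3831 against 3986, 5281 and 4139. *Clstn3*, a calsyntenin gene with an adipose isoform, had 2080.1, 1899.7 and 1321 against 2337, 2460.4 and 2233, separated groups with a log2 fold change of 0.43 (95% confidence interval 0.06 to 0.81) that is under the threshold. *Cox7a1*, a cytochrome c oxidase subunit of muscle and brown fat, had 273, 411 and 375 counts against 272, 267 and 188 (log2 fold change −0.54).

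Lipogenic genes had 0 of 16 called and a median of 0.27, the highest of the pathway lists, but the median was 0.02 without Atf4WT replicate 2. *Fasn* (fatty acid synthase) had 299015, 341113 and 188691 normalized counts in Atf4WT and 400750.1, 348632 and 240086 in Atf4AKO iWAT, and replicate 2 was the lowest library of each genotype. *Elovl5*, a fatty acid elongase gene, had 3362, 3018 and 3085 against 3651, 3706 and 4129, with a log2 fold change of 0.28 (unadjusted p = 0.00588, adjusted p = 1, limma). Lipolysis and lipid droplet genes had 0 of 16 called and a median of 0.05, and cholesterol synthesis genes 0 of 18 and 0.05. The interval lay within 1.5-fold for 8 of the 16 and for 6 of the 18. Immediate early genes, which respond within minutes to handling and signalling, had 0 of 21 called and a median of 0.02, and circadian clock genes 0 of 19 and −0.09. Interferon-stimulated genes had 0 of 24 called and a median of −0.02, cell cycle genes 0 of 18 and 0.04, collagens 0 of 34 and −0.02, keratins 0 of 7 and −0.19, and cytokine and macrophage state genes 0 of 13 and 0.08. Over all 37 lists, 793 genes were tested and 3 were DEGs, beside 0.463% of all tested genes. At that share a list of this size would mostly hold no DEG, so 0 calls say little about a single list.

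Atf4WT replicate 2 stood apart from the other RT libraries in its muscle and lymphoid transcripts. All 16 skeletal muscle markers were highest in this library, by 4.57-fold to 1400-fold over the next highest RT library. *Acta1* (skeletal muscle actin) had 389.6, 789 and 35541 normalized counts in Atf4WT replicates 0, 1 and 2 and 131, 80.7 and 256 in Atf4AKO iWAT. The summed muscle markers were 182826 in this library and 1657 to 2631 in the other 5. All 16 B cell markers were also highest there, by 1.66-fold to 17.6-fold, with a summed level of 5862 beside 432 to 1273. T cell markers were summed to 578, 459 and 1283 in Atf4WT and 675, 612 and 1434 in Atf4AKO iWAT, so that both replicates 2 were high. In this library, 142 genes exceeded each of the other 5 RT libraries more than 3-fold, beside 0 to 3 genes in each of the others.

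These markers gave large fold changes with no calls, beside 0.463% of all tested genes that were called. Muscle markers had a median log2 fold change of −2.55, with 16 of 16 below 0 and 0 called, and the median was 0.00 without Atf4WT replicate 2. B cell markers had a median of −0.69, with 16 of 16 below 0 and 0 called, and it was 0.80 without that library. T cell markers had a median of 0.36 (0 of 19 called) and lymph node stroma markers one of −0.29 (0 of 5). White adipocyte markers were abundant in every library. *Adipoq* had 98068, 98864 and 87909 normalized counts in Atf4WT and 84587, 108458 and 95500.2 in Atf4AKO iWAT, and the list had a median of 0.11 with 0 of 15 called. Without Atf4WT replicate 2 the median of this list was −0.03 and 1 gene was a lower DEG. Macrophage markers had a median of 0.15 (0 of 14 called), endothelial markers −0.06 (0 of 13), fibroblast and progenitor markers 0.00 (0 of 15), Schwann cell markers 0.25 (0 of 9), smooth muscle and pericyte markers 0.01 (0 of 10), neutrophil markers 0.23 (0 of 3), erythroid markers 0.28 (0 of 2) and epithelial markers 0.08 (0 of 3).

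**Figure D4:**
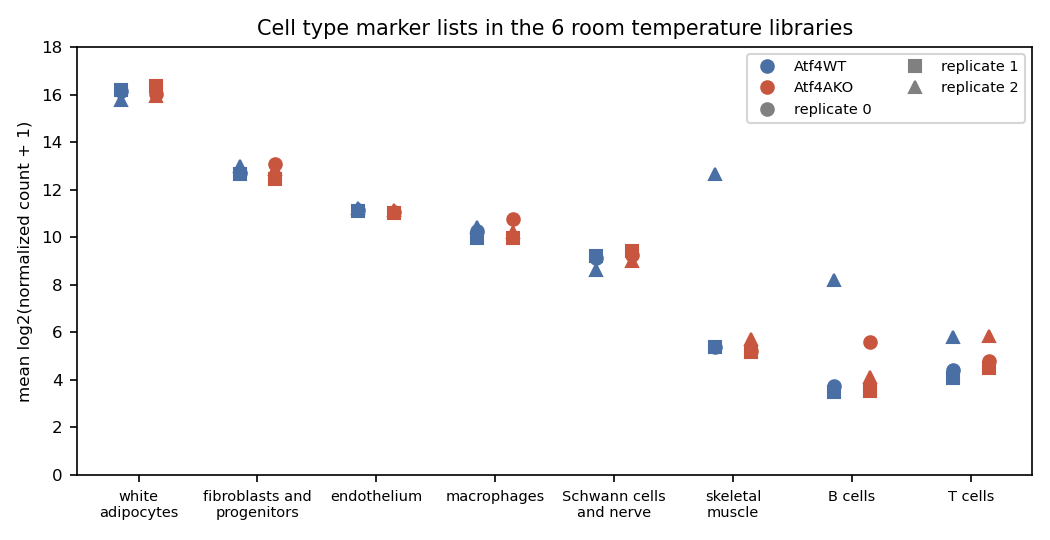
Mean log2(normalized count + 1) of 8 cell type marker lists (vertical axis) in the 3 Atf4WT (blue) and 3 Atf4AKO (red) libraries at RT, with symbols for replicates 0 to 2. Atf4WT replicate 2 lies at 12.68 for skeletal muscle, where the other 5 libraries lie between 5.19 and 5.70, and at 8.21 for B cells, where they lie between 3.50 and 5.59.

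Leaving out this library changed which genes were called. It gave 59 DEGs (28 lower, 31 higher), of which 24 were among the 62, namely 11 of the 38 lower and 13 of the 24 higher genes. Of the 38 lower DEGs, 17 had their highest value in Atf4WT replicate 2, and 0 of these were called without it. The 17 were picked for peaking in that library, so the loss of their calls follows in part from the choice. A like count for DEGs that peak in another library is not given here. Leaving out each of the other 5 RT libraries kept 29 to 49 of the 62. *Prkag3*, a subunit of AMP-activated protein kinase found in skeletal muscle and named here after its values were seen, had 13.8, 35.6 and 179 counts in Atf4WT and 15.8, 6.97 and 3.71 in Atf4AKO iWAT. Its log2 fold change was −2.42, and −1.44 without that library (unadjusted p = 0.0961, adjusted p = 1, limma). *Nexn*, an actin-binding protein gene of muscle that was also chosen after its values were seen, had 115, 219 and 445 against 158, 88.6 and 65.9.

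Beside *Atf4*, *Rps19bp1* and *Atf5*, several lower DEGs were moderately expressed and separated between the genotypes. *Il17re*, which encodes a subunit of the receptor for interleukin 17C, had 252, 251 and 221 normalized counts in Atf4WT and 149, 150.4 and 150.3 in Atf4AKO iWAT. The log2 fold change was −0.68 (standard error 0.17, unadjusted p = 0.00182, adjusted p = 1, limma). *Synpo2*, an actin-bundling protein gene of muscle and other contractile cells, had 372, 669.8 and 632 against 359, 199 and 208. Its log2 fold change of −1.13 was still −1.02 without Atf4WT replicate 2 (unadjusted p = 0.00956, adjusted p = 1, limma). *Tbx18*, a T-box factor gene of mesenchymal and mural cells, had 162, 167 and 116 against 101, 75.7 and 91.8 (log2 fold change −0.71), and the fold change was −0.88 without that library.

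*Alb* (albumin) had 933, 2029.6 and 1540.0 normalized counts against 863, 861 and 674 (log2 fold change −0.85, called in 12 of 19 other settings). *Fam131a* (−0.66), *Mapt* (the microtubule protein tau, −0.67), *Lrrc20* (−0.78), *Ociad2* (−0.84), *Fam71e1* (−0.86), *Dtna* (a dystrobrevin, −0.72) and *Klhl29* (−0.78) completed the 15 lower DEGs with a mean of at least 50 counts and no overlap. In *Mapt*, *Lrrc20*, *Ociad2*, *Fam71e1*, *Dtna* and *Fam131a*, Atf4WT replicate 2 was the highest library. Of these 6 genes 0 were called without it, which again follows in part from picking them by that library. *Klhl29* and *Alb* were highest in Atf4WT replicate 1.

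Among the higher DEGs, 6 met the same conditions, among them *Cacna1i*, *Aspg*, *Zfp949*, *Klrb1c* and *Ror2*. *Zfp949*, a zinc finger protein gene, had 306, 307 and 454 normalized counts in Atf4WT and 474, 537 and 973 in Atf4AKO iWAT, a log2 fold change of 0.84 (standard error 0.25, unadjusted p = 0.00585, adjusted p = 1, limma). The value rests on Atf4AKO replicate 2, without which it was 0.53 and under the fold threshold. *Ror2*, a receptor for the signalling protein WNT5A, had 43.2, 44.3 and 38.9 against 59.5, 79.7 and 62.2 (log2 fold change 0.65, called in 12 of 18 other settings). *Klrb1c*, which encodes the natural killer cell receptor NK1.1, had 67.1, 33.7 and 67.7 against 70.6, 99.6 and 188 (log2 fold change 1.02), and its fold change was 0.64 and not called without Atf4AKO replicate 2.

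*Ncr1* and *Fasl* were chosen after their values were seen. *Ncr1* (the receptor NKp46) had 33.1, 15.4 and 26 counts in Atf4WT and 35.3, 44.8 and 95.6 in Atf4AKO iWAT, and *Fasl* (the ligand of the death receptor FAS) had 4.59, 8.66 and 8.34 against 13, 16.9 and 26. In *Klrb1c*, *Ncr1* and *Fasl* Atf4AKO replicate 2 was the highest library, and that library also had the highest summed T cell markers. The log2 fold changes of *Ncr1* and *Fasl* were 1.14 and 1.25, and without that library they were 0.72 and 0.99 and not called (unadjusted p = 0.171 and 0.0746, limma). With a lymphocyte score as a covariate they were 1.16 and 1.27. This score was built from B and T cell markers and does not measure natural killer cells, so the part of cell content in these values was not tested.

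Whether the same genes differed after cold was asked with the other 6 libraries, which share no sample with the RT comparison. After cold, 858 genes (6.4%) were DEGs, and the difference between the genotype effects passed the same thresholds for 621 genes (4.63%), a count that was 325 with the lymphocyte score (the mean log2 level of B and T cell markers) as a covariate. Over all tested genes, the difference had an unadjusted p under 0.05 for 928 genes and an adjusted p under 0.05 for 0, with limma. Lymphocyte marker levels differed with genotype after cold, as all 16 B cell markers and all 19 T cell markers were lower DEGs there, with median log2 fold changes of −5.57 and −3.68. The score was 7.03 to 9.53 in cold Atf4WT and 3.33 to 4.92 in cold Atf4AKO libraries, so the covariate cannot be separated from genotype there. The part of these cells in the other cold values was not tested. Of the 62 RT DEGs, 8 were also DEGs after cold in the same direction, which is 12.9% of the RT DEGs and 0.932% of the cold DEGs. They included *Atf4*, *Rps19bp1*, *Atf5*, *Xlr3b* and *Psd2* on the lower side and *Cacna1i* and *Zfp949* on the higher side. A further 2 genes, *Fasl* and *Gcsam*, were DEGs in both with opposite directions, and 39 of the 62 kept their sign after cold at any size. The share of all tested genes that kept their sign is not given here, so this count cannot be read as agreement.

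*Zfp949* was again higher after cold, with 340, 342 and 307 counts in Atf4WT and 1007, 762 and 778 in Atf4AKO iWAT. *Atf5* had 10742, 10729 and 8372 counts in Atf4WT and 4447, 5739 and 4982 in Atf4AKO iWAT after cold, a log2 fold change of −0.97 beside −0.68 at RT (difference −0.30, unadjusted p = 0.0935, adjusted p = 0.846, limma). *Slc1a4* had a fold change of −0.56 after cold, just under the fold threshold, beside −0.64 at RT. *Xlr3b*, an X-linked lymphocyte-regulated gene with close paralogs, had 203, 85.7 and 97.4 counts in Atf4WT and 95.7, 20.9 and 58.4 in Atf4AKO iWAT at RT. Its log2 fold change of −1.26 was −0.67 without Atf4AKO replicate 1 and was then not called. Its level is uncertain where reads of paralogs do not map uniquely.

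**Figure D5:**
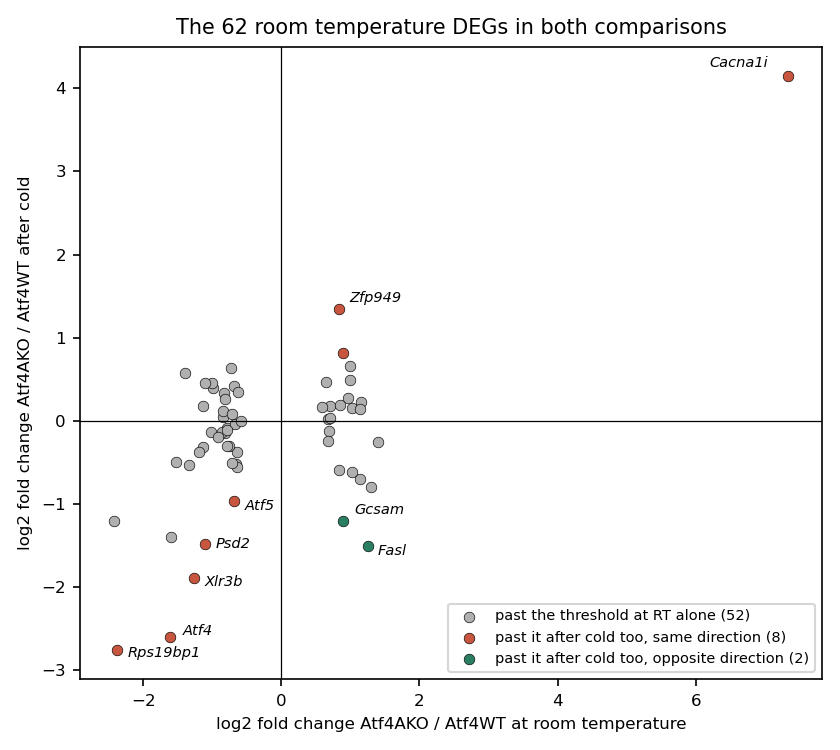
Log2 fold change between Atf4AKO and Atf4WT iWAT of the 62 RT DEGs at RT (horizontal axis) and after cold (vertical axis), 1 point per gene. The 8 red genes passed the threshold in both comparisons in the same direction, the 2 green genes in opposite directions, and the 52 grey genes at RT alone, with no test of the difference implied by the colour.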

How the data were processed

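Polyadenylated RNA of iWAT was read on DNBSEQ, from libraries that keep the strand. According to the methods, the authors cleaned reads with SOAPnuke and aligned with STAR (mm10). Unique alignments per gene came from featureCounts and scaling from pyDESeq2, so that the deposited values are a signal of reads divided by size factors. Versions and the strand setting are not given in the sources used here. Dividing by the value of 1 read gave whole reads in 100% of values (tolerance 0.001). Each RT library held 26983496 to 29105147 reads on listed genes, and replicates differed by 34.5 to 69.8 times the counting variance (chi-square per degree of freedom), so that biological or handling spread sets the precision.

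limma 3.58.1 in R 4.3.3 was fitted to log2(normalized count + 1) of 13404 genes with a mean of at least 10, with 4 group means and a variance trend, and 755 genes fell under this filter. Fold changes on this scale understate changes of low genes. The DEG thresholds were those of the study, with Benjamini-Hochberg adjusted p beside it. Other settings were pseudocounts of 0.5 and 5, no filter, a mean of at least 50, a model of the RT libraries alone, scaling by the 75th percentile or TMM, array weights, a replicate block, lymphocyte or muscle scores (mean log2 marker levels) as covariates, leaving out each RT library, an adjusted threshold, and edgeR 4.0.16 (quasi-likelihood) and DESeq2 1.42.0 on the recovered reads.

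The comparison and gene lists were chosen with earlier results of these data known. Genes named were *Atf4* and its neighbours within 500 kb, the 15 lower and 15 higher DEGs with the smallest p (mean of at least 50 at RT, no overlap), the 5 largest changes of each direction under the same conditions, DEGs shared with cold, list members, genes the study names, genes overlapping *Atf5* and those apart in opposite directions at RT and after cold, others being marked as chosen after their values were seen. Positions came from GENCODE M21 (mm10), in which 13959 listed genes had a unique symbol. Python 3.11.15 with pandas 2.3.3 and matplotlib 3.10.9 did the rest. Results on a few genes are not reported here.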

Additional observations from a re-analysis of the deposited data

Results flagged for a closer look

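For 6 RT DEGs the 3 Atf4AKO libraries lay on one side of the 3 Atf4WT libraries at RT and on the other side after cold. The share of all tested genes that changed sides in this way is not given here. At RT alone, Atf4AKO lay entirely below for 2.98% and entirely above for 3.32% of all tested genes. *Il17re* was lower at RT and higher after cold, with a genotype effect after cold minus that at RT of 1.10 on the log2 scale. *Fasl*, *Gcsam*, *Samd3*, *Klrb1c* and *Igf2bp3* were higher at RT and lower after cold, with differences of −2.76, −2.11, −2.08, −1.63 and −1.43. The interaction in limma gave unadjusted p-values from 0.000677 (*Il17re*) to 0.012 (*Klrb1c*) and adjusted p-values from 0.474 to 0.489, so that no difference passed the adjusted threshold. The genes were picked for lying on opposite sides, so low unadjusted p-values follow in part from the selection. The lymphocyte score was 7.03 to 9.53 in cold Atf4WT and 3.33 to 4.92 in cold Atf4AKO libraries, beside 3.82 to 6.91 and 4.07 to 5.15 at RT. With that score as a covariate the differences were 1.05 for *Il17re*, −2.26 for *Fasl*, −0.92 for *Gcsam*, −1.09 for *Samd3*, −0.98 for *Klrb1c* and −1.05 for *Igf2bp3*. Their unadjusted limma p-values were then 0.015 for *Il17re* and 0.0361 for *Fasl*, but 0.203 for *Gcsam*, 0.232 for *Samd3*, 0.244 for *Klrb1c* and 0.0855 for *Igf2bp3*. The effect after cold with the score was no longer negative for *Gcsam* (0.04), *Samd3* (0.24) and *Klrb1c* (0.07), and was −0.20 for *Igf2bp3* and −0.99 for *Fasl*, none of them called. The score did not overlap between the genotypes after cold, so this covariate cannot be separated from genotype there. The part of lymphocytes in these values was not tested.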

How the results depend on the processing

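The direction and the call of *Atf4*, *Rps19bp1*, *Atf5*, *Aspg*, *Il17re*, *Synpo2* and *Tbx18* held in all 19 refits tried, as did those of *Cacna1i* in the 18 that gave it a p-value (DESeq2 gave none), and 11 of the 62 DEGs were called in every refit that gave them one. For *Atf4* the log2 fold change without single libraries ran from −1.48 to −1.72. The adjusted p of *Rps19bp1* ran from 1.2e-25 to 0.0186, that of *Atf4* from 1.56e-09 to 0.516 and that of *Cacna1i* was 3.41e-05 without Atf4WT replicate 2 and near 1 at its highest.

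The count of 62 DEGs became 110 with DESeq2, 138 with edgeR, 29 with a mean of at least 50 and 1 with adjusted p-values, and 47 to 129 without single libraries (129 without Atf4WT replicate 0, 107 without Atf4AKO replicate 0, 117 without Atf4AKO replicate 2). The 38 lower DEGs became 85, 113 and 19 in the first 3 of these settings and 25 to 87 without single libraries, and the 24 higher DEGs 10 with a mean of at least 50, 46 with array weights, 43 with the lymphocyte score and 20 to 44 without single libraries. The fewer calls at a mean of at least 50 follow from fewer genes tested, and the cause of the others was not tested. The 1 gene with an adjusted p under 0.05 became 4 with DESeq2 and with array weights, 2 with either score, with the RT libraries alone and with a pseudocount of 5, 3 with the replicate block, and 1 to 2 without single libraries. The 8 DEGs shared with cold became 18 with DESeq2, 15 with edgeR and 6 to 15 without single libraries. The 621 genes in the difference of effects became 325 with the lymphocyte score (423 to 706 without single libraries). The 845 genes without overlap became 1550 to 2894 when groups of 2 and 3 were compared, as smaller groups separate more often without any genotype difference.

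Same-numbered RT libraries correlated at −0.049, 0.317 and 0.367 for replicates 0, 1 and 2 in their deviations from the group means. Differently numbered ones correlated at −0.378 to 0.269. For Atf4WT replicates 1 and 2 the same number gave the best match, but Atf4WT replicate 0 correlated best with Atf4AKO replicate 1. The numbers were not taken as pairs in the main model. The replicate block gave 69 DEGs (39 lower, 30 higher), of which 50 were among the 62, and 0.049 as the adjusted p of *Atf4* and *Cacna1i*. The RT libraries alone give no count shared with cold. The number of libraries limits the precision, since replicates differed far beyond counting error.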
